A study of Homo sapiens with 18 samples.

Results

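NRF1 (ENSG00000106459.15), the gene whose exon 7 the base editors were aimed at, was followed through every group of the series. It was taken as the row of the count table with the symbol NRF1, 1 gene of the 58870 in the table and of the 17743 that passed the filter on low counts. The cells were HEK293T, a human embryonic kidney line, transfected with a plasmid that carried a base editor and its guide, kept in puromycin for 48 h and harvested 72 h after transfection for sequencing of polyadenylated RNA. All 18 libraries thus came from cells that had received an editor, a guide and puromycin. SaABE and SpABE use the same adenine deaminase, ABE8e, joined to a Cas9 nickase from Staphylococcus aureus in SaABE and from Streptococcus pyogenes in SpABE. SpCBE joins a cytosine deaminase, evoCDA1, to the nickase from S. pyogenes. Every editor was paired with a guide to an NRF1 splice site or with a guide to an intergenic site, which gave 6 groups of 3 libraries. The cells were transfected populations and not clones, so that edited and unedited copies of the gene could be mixed, and neither the share of edited alleles nor the share of transcripts without exon 7 is in these counts. Whether replicates were separate cultures is not given by the labels, and the p-values below measure the spread between libraries, which may be technical.

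NRF1, nuclear respiratory factor 1, is a transcription factor that binds a GC-rich palindrome in the promoters of many housekeeping genes as a dimer. It is best known for its place upstream of nuclear genes that serve the mitochondrial respiratory chain, and it also binds promoters of genes for translation, the cell cycle and chromatin. Base editors change single bases without cutting both strands. When the changed base belongs to the conserved ends of an intron, the splicing machinery can pass over the neighbouring exon.

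The gene lies at chr7:129611720-129757082 on the plus strand of hg38 and spans 145363 bases. In the transcript NRF1-205 (GENCODE 44), exon 7 is 1 of 11 exons and lies at chr7:129710374-129710571. All of its 198 bases are coding. It begins at a codon boundary and holds codons 256 to 321 of 503, so that 437 codons in the same frame are left without it. Of the 7 annotated transcripts, 5 contain exon 7 and the other 2 end before it, and the annotation holds 0 transcripts that cross the region without it. Exon 7 makes up 5.63% of the length of NRF1-205. A gene count adds up transcripts with and without the exon, and loss of the exon from every transcript would shorten the target for reads by only 0.08 on the log2 scale.

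The guides are shown because they place the splice-site bases that each editor could change. The capital is that base, inferred here from the guide and genome sequences. Positions are counted from 1 at the guide's 5′ end. The SpABE guide covers chr7:129710367-129710386 on the plus strand, the SpCBE guide chr7:129710359-129710378 on the minus strand and the SaABE guide chr7:129710560-129710579 on the minus strand. The changes inferred in this way are A6G for SpABE, C6T for SpCBE and A7G for SaABE. Changes at other bases of the guides were not examined.
SpABE, NRF1 guide: gtgacAggtttcatggaccc
SpCBE, NRF1 guide: gaaacCtgtcaccaaatgac
SaABE, NRF1 guide: ttactcAcctggataagtga
SpABE and SpCBE, intergenic guide: ttgactgcacacaactgggc
SaABE, intergenic guide: ccattatcgtgacgctatcg
The SpABE and SpCBE guides meet at the acceptor, the 3′ end of the upstream intron, whereas the SaABE guide lies over the donor, the 5′ end of the downstream intron. Of the 20 bases of each guide, 13 lie in the exon for SpABE, 5 for SpCBE and 12 for SaABE. The intergenic guide of SpABE and SpCBE matched chr13:102967577-102967596 on the plus strand, 63577 bases from the nearest annotated gene, and that of SaABE matched chr10:131349102-131349121 on the minus strand, 37381 bases away from TCERG1L. In hg38 every guide had 1 perfect match. SpABE and SpCBE share the nickase, the acceptor and the intergenic guide, and differ in deaminase and NRF1 guide, which cannot be told apart. SaABE and SpABE share the deaminase and differ in nickase, splice site and intergenic site, and SaABE and SpCBE differ in all of these, which again cannot be told apart.

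Both ends of the exon are shown to place the inferred target bases, with exon bases in capitals and intron bases in lower case. The acceptor window is chr7:129710354-129710393 and the donor window is chr7:129710552-129710591, both read on the plus strand.
Acceptor of exon 7: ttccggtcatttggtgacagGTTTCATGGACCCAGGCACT
Donor of exon 7: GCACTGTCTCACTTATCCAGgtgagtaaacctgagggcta
The inferred SpABE target is the a of the ag that closes the upstream intron. On the opposite strand, the inferred SpCBE target is the base paired with the g of that ag. The inferred SaABE target, also on that strand, is the base paired with the t of the gt that opens the downstream intron. The intron before the exon has 1140 bases and the intron after it 903.

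**Figure D1:**
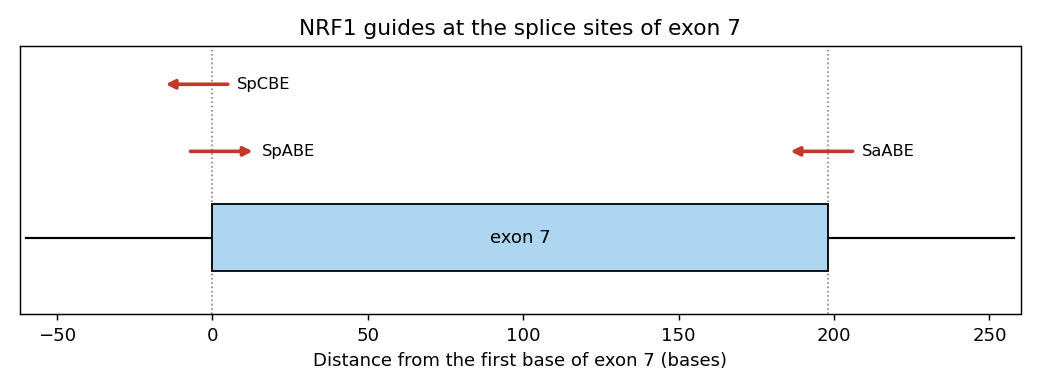
Map of NRF1 exon 7 (blue box, 198 bases) with distance from its first base in bases on the x axis. Red arrows are the 20-base NRF1 guides, pointing 5′ to 3′, and dotted lines are the exon's ends: SpABE and SpCBE lie over the acceptor and SaABE over the donor.

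Libraries held 28101094 to 40687447 counts. The mitochondrial share was 0.978% to 1.16% in group means and the 10 most abundant genes took 3.87% to 6.52%. Genes that mark the line were present in every library. VIM, an intermediate filament of mesenchymal and many cultured cells, was at 594 to 793 CPM (counts brought to a common library total). The epithelial keratin KRT18 was at 64.1 to 72.7 CPM and the kidney factor PAX2 at 1.24 to 3.45 CPM. The summed level of 8 markers of blood, liver, endothelium, fibroblasts and erythroid cells was 0.141 to 0.466 CPM in every library. These marker levels were not scaled by TMM, whereas the CPM levels of genes given below were.

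NRF1 itself was expressed at a middling level in these cells. It received 853.75 to 1642.79 estimated counts per library, so that counting error alone was 2.47% to 3.42% of the value. Per kilobase of its 4119 bases of exon, NRF1 averaged 6.91 ± 0.774 CPM in the intergenic-guide libraries (SD, n = 9), above 65.8% of 17626 expressed genes of known length. Its variation between libraries of a group beyond counting error, as estimated by edgeR, was 3.84%, beside 4.17% for the median gene. That estimate is drawn toward those of other genes, and the spread may be technical.

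The first comparison asked what each NRF1 guide did to the amount of NRF1 transcript. In SaABE cells, the 3 intergenic-guide libraries had 33.1, 32.1 and 31.5 CPM of NRF1 and the 3 NRF1-guide libraries had 40.3, 39.4 and 41 CPM. In SpABE cells, the values were 26.7, 28.8 and 28.5 CPM with the intergenic guide and 35.7, 37.5 and 41.6 CPM with the NRF1 guide. In SpCBE cells, they were 24.4, 25 and 26 CPM with the intergenic guide and 38.3, 39.5 and 43.8 CPM with the NRF1 guide. The groups did not overlap in any editor, and the lowest NRF1-guide library of the series, at 35.7 CPM, lay above the highest intergenic-guide library, at 33.1 CPM. The share of all genes whose libraries separate in such a way was not counted, here or for the separations below.

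**Figure D2:**
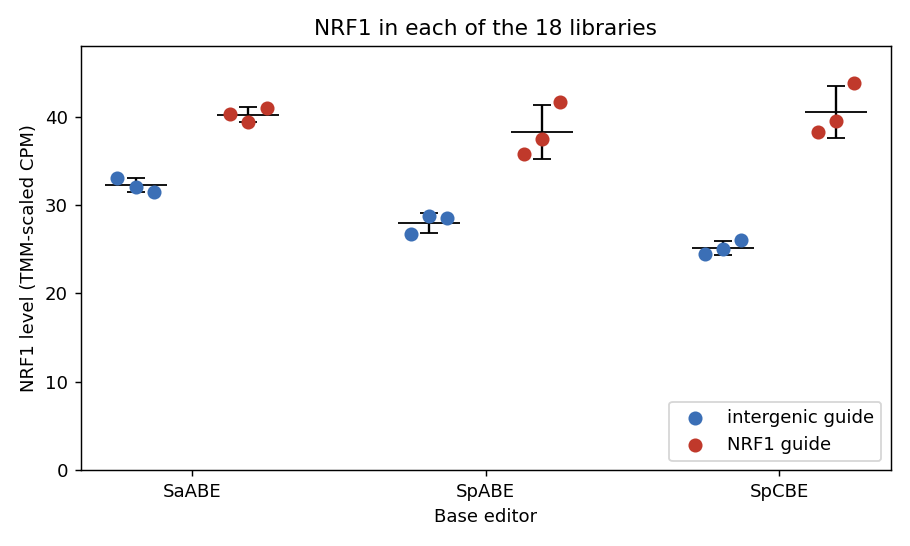
NRF1 level in TMM-scaled CPM (y axis) for each editor (x axis), with 1 point per library, blue for the intergenic guide and red for the NRF1 guide. Horizontal lines and bars are group means and SDs (n = 3). All 9 red points, from 35.7 to 43.8 CPM, lie above all 9 blue points, from 24.4 to 33.1 CPM. The share of all genes that separate in this way was not counted.

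NRF1 transcript was thus higher, not lower, when its own splice site was the target. The rise was 1.25-fold in SaABE, 1.37-fold in SpABE and 1.61-fold in SpCBE, with 95% intervals of 1.16 to 1.35, 1.27 to 1.47 and 1.50 to 1.74 taken from the SE. The SaABE effect was 0.32 (SE 0.0551) on the log2 scale (edgeR quasi-likelihood test, Benjamini-Hochberg adjusted p = 6.57e-05). The SpABE effect was 0.45 (SE 0.054; edgeR, adjusted p = 3.82e-07) and the SpCBE effect 0.69 (SE 0.0544; edgeR, adjusted p = 4.15e-10). All 3 passed the adjusted p of 0.05, and the SpCBE effect was the only one to pass the log2 fold change of 0.5 as well. Without NRF1-guide replicate 1, the SpABE effect was at 0.50 and passed it too.

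A rise at this adjusted p was common in these data. A rise past the fold threshold as well, which NRF1 reached only in SpCBE, was not. Genes higher at an adjusted p under 0.05 were 16.9% of those tested in SaABE, 15.4% in SpABE and 11% in SpCBE. With the fold threshold added, they were 1.24% in SaABE, 1.71% in SpABE and 0.84% in SpCBE. The NRF1 effect exceeded that of 91.7% of genes in SaABE, 94.7% in SpABE and 98% in SpCBE, and the median effect of all genes lay between -0.0015 and 0.015 in the 3 editors.

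Over all 3 editors, NRF1 averaged 28.5 ± 3.19 CPM with intergenic guides and 39.7 ± 2.39 CPM with NRF1 guides (SD, n = 9 each). The log2 fold change with the editor as a term was 0.49 (SE 0.0449; edgeR, adjusted p = 3.61e-09), short of the fold threshold of 0.5. Genes higher at an adjusted p under 0.05 in this comparison made up 20.6% of those tested, and 1.13% passed the fold threshold as well. Leaving out SaABE intergenic-guide replicate 1, SaABE NRF1-guide replicate 2 or SpABE NRF1-guide replicate 1 took the value past 0.5, to 0.51, 0.50 and 0.50. An exact permutation test of mean log2 CPM, with guide labels permuted within each editor, gave a two-sided p of 0.00025, the smallest that its 8000 arrangements allow. Within 1 editor the exact two-sided permutation p was 0.1, the smallest that 3 against 3 libraries allow.

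The next comparison asked whether the editors differed in their effect on NRF1. The effect was smaller in SaABE than in SpCBE by 0.37 on the log2 scale, a ratio of 0.775 with a 95% interval of 0.698 to 0.861 (edgeR, adjusted p = 0.00667). Differences past that threshold were found for 4.09% of genes. The SaABE and SpABE effects differed by -0.13 with a 95% interval of -0.28 to 0.02 (edgeR, adjusted p = 0.309), a comparison in which 11.7% of genes passed. The interval reaches from no difference to a SaABE effect well below that of SpABE, and without SpABE NRF1-guide replicate 3 the difference was -0.06.

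SpABE lay between the others, and its difference from SpCBE was at the edge of the threshold. It was -0.24 (SE 0.0768; edgeR, adjusted p = 0.0559), where 8.96% of genes passed. In 12 of 20 alternatives the difference still did not pass, among them DESeq2 (adjusted p = 0.0567) and RLE scaling (edgeR, adjusted p = 0.062). The difference passed with the replicate number as a block (edgeR, adjusted p = 0.0329). It passed as well with a robust estimate of the spread (edgeR, adjusted p = 0.0399), which was chosen after seeing the data. It also passed without SpABE intergenic-guide replicate 1 (-0.27), without SpABE NRF1-guide replicate 3 (-0.30) or without SpCBE NRF1-guide replicate 1 (-0.27).

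The effects ran in the reverse order of the NRF1 level in the intergenic-guide groups, which is itself 1 arm of each effect. With intergenic guides, NRF1 averaged 32.2 ± 0.808 CPM in SaABE, 28 ± 1.12 CPM in SpABE and 25.1 ± 0.81 CPM in SpCBE (SD, n = 3 each). The libraries of these 3 groups did not overlap. With NRF1 guides, the means were 40.2 ± 0.82 CPM in SaABE, 38.3 ± 3.02 CPM in SpABE and 40.5 ± 2.93 CPM in SpCBE, and the libraries overlapped. The highest group mean was 1.28 times the lowest among intergenic groups and 1.06 times the lowest among NRF1-guide groups.

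Among intergenic-guide groups, NRF1 was higher in SaABE than in SpABE by 0.20 on the log2 scale (edgeR, adjusted p = 0.00604) and higher in SaABE than in SpCBE by 0.36 (edgeR, adjusted p = 1.85e-05). Editors differed at many genes in these comparisons, with 38.4% and 40.6% of tested genes past the same threshold. The neighbouring levels of SpABE and SpCBE differed by 0.16 (edgeR, adjusted p = 0.0335), a comparison in which 35.5% of genes passed. That call was lost without SpABE intergenic-guide replicate 2 (0.14) or 3 (0.15), without SpCBE intergenic-guide replicate 1 (0.15) or 2 (0.16), and with libraries scaled by total counts alone (0.11, edgeR, adjusted p = 0.15).

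Among NRF1-guide groups, none of the 3 comparisons passed by edgeR, and 0 of 3 had an unadjusted p under 0.05. The difference was 0.07 for SaABE minus SpABE with a 95% interval of -0.03 to 0.17 (edgeR, adjusted p = 0.32). That value was 0.02 with total counts alone or without SpABE NRF1-guide replicate 1, and 0.14 without SpABE NRF1-guide replicate 3 (edgeR, adjusted p = 0.0523). The difference was -0.01 for SaABE minus SpCBE with an interval of -0.11 to 0.09 (edgeR, adjusted p = 0.913). It was -0.08 for SpABE minus SpCBE with an interval of -0.18 to 0.02 (edgeR, adjusted p = 0.253). At the same threshold 38%, 44.8% and 35.5% of genes differed in these comparisons. The last difference passed with total counts alone (-0.14, edgeR, adjusted p = 0.0336) and without SpABE NRF1-guide replicate 3 (-0.15). DESeq2 called 0 of the 3.

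**Figure D3:**
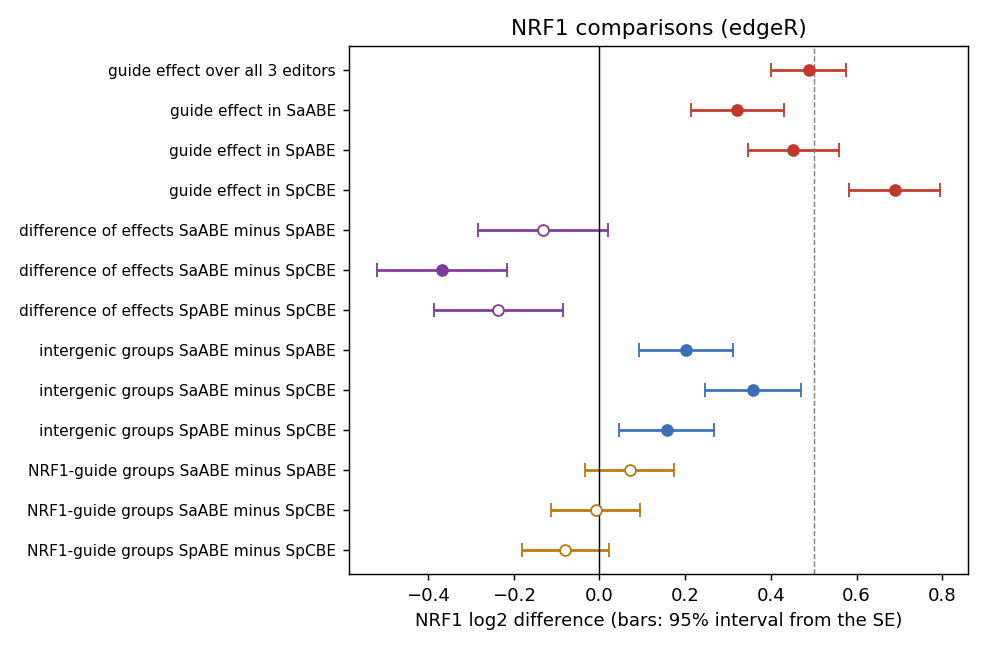
NRF1 log2 differences (x axis) in 13 comparisons, with 95% intervals from the SE. Red is the guide effect, purple the difference of effects between editors, blue the intergenic-guide groups and yellow the NRF1-guide groups, filled where the edgeR adjusted p is under 0.05, with the dashed line at 0.5. The guide effects rise from 0.32 in SaABE to 0.69 in SpCBE while the yellow points lie near 0.

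Replicates were not equally tight. NRF1 varied by 2.04% to 3.99% between libraries (coefficient of variation) in the intergenic groups and in the SaABE NRF1-guide group, close to counting error. It varied by 7.90% in the SpABE and 7.24% in the SpCBE NRF1-guide group. In both of these the highest library was replicate 3, at 41.6 and 43.8 CPM.

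The 3 target genes that the study followed fell in each editor at an adjusted p under 0.05 (edgeR). The study had picked them as NRF1 targets from its single-cell screen. Over all 3 editors, 18.8% of all genes were lower at that threshold, and the share in each editor was not counted. In SaABE, SpABE and SpCBE the log2 changes were -1.51, -1.44 and -1.38 for PUDP, -1.64, -1.61 and -1.55 for ANKRD26, and -1.50, -1.66 and -1.51 for YEATS4. By edgeR 0 of the 9 differences between editors passed, also at an unadjusted p under 0.05. Of all genes, 11.7% passed at the adjusted p for SaABE minus SpABE, 4.09% for SaABE minus SpCBE and 8.96% for SpABE minus SpCBE. At such shares, 0 of 9 says little about these genes. The SaABE minus SpCBE difference was -0.13 for PUDP (SE 0.105), -0.09 for ANKRD26 (SE 0.0968) and 0.01 for YEATS4 (SE 0.0939).

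SRSF3, an SR protein that the study links to inclusion of exon 7, is one of the splicing factors that bind exons. It averaged 514 ± 38.8 CPM with intergenic guides and 500 ± 35.8 CPM with NRF1 guides (SD, n = 9 each), a log2 difference of -0.04 (edgeR, adjusted p = 0.151), which passed with total counts alone (-0.06, edgeR, adjusted p = 0.0204). In SaABE it fell by 0.13 (edgeR, adjusted p = 0.000132), with values of -0.02 in SpABE and 0.04 in SpCBE (edgeR, adjusted p = 0.501 and 0.294). The SaABE effect differed from that of SpABE by -0.11 and from that of SpCBE by -0.16, both past the threshold.

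A list of genes that work with NRF1 or beside it, and NFE2L1, was called about as often as genes at large. The list held 12 genes, all tested. NFE2L1 was listed only because it shares the abbreviation, and it is among the 3 higher genes counted next. Over all 3 editors 3 were higher and 2 lower at an adjusted p under 0.05, 7 did not pass, and 0 exceeded a log2 change of 0.5 by edgeR. DESeq2 called the same numbers, 3 and 2. Across all genes tested, 20.6% were higher and 18.8% lower at that threshold, and the list's median of -0.0014 compares with 0.013 for all genes. With the fold threshold added, 976 of the 17743 genes passed in either direction, a share at which 0 of 12 says little.

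Among coactivators of NRF1, PPARGC1A, the regulator of mitochondrial biogenesis also called PGC-1α, was scarce at 2.90 ± 0.699 CPM with intergenic guides and 2.92 ± 0.795 CPM with NRF1 guides (SD, n = 9 each). PPARGC1B, its relative, had a log2 difference of -0.06 and PPRC1, the third of that family, of -0.02. The edgeR adjusted p was 0.941 for PPARGC1A, 0.215 for PPARGC1B and 0.575 for PPRC1.

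Among partner proteins, DYNLL1, a dynein light chain that binds NRF1, averaged 233 ± 50.2 CPM with intergenic guides and 255 ± 65.6 CPM with NRF1 guides (SD, n = 9 each) and rose by 0.12 on the log2 scale (edgeR, adjusted p = 8.59e-05). Its large SDs pool groups of different levels. With intergenic guides, DYNLL1 averaged 295 ± 6.78 CPM in SaABE and 181 ± 1.61 CPM in SpCBE (SD within the group). The cause of this difference was not tested. HCFC1, a cofactor of promoter-bound factors, fell by 0.09 (edgeR, adjusted p = 0.0171). That fall was in SaABE, at -0.24 (edgeR, adjusted p = 1.35e-05), beside 0.02 in SpABE and -0.06 in SpCBE, and the SaABE and SpABE effects differed by -0.25. PARP1, a poly(ADP-ribose) polymerase, had a log2 difference of 0.02 and did not pass.

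Among factors that act on many of the same nuclear genes for mitochondria, GABPB1, a subunit of GABP (nuclear respiratory factor 2), fell by 0.10 (edgeR, adjusted p = 0.00658), and YY1 rose by 0.09 (edgeR, adjusted p = 0.00193). GABPA had a difference of 0.05, GABPB2 of -0.01 and the nuclear receptor ESRRA of -0.06, and these 3 did not pass. ESRRA passed with total counts alone (-0.08, edgeR, adjusted p = 0.0333) and GABPA without SpCBE intergenic-guide replicate 1 (0.07, edgeR, adjusted p = 0.0193). GABPB1 had log2 differences of -0.18 in SaABE (edgeR, adjusted p = 0.00427), -0.10 in SpABE (edgeR, adjusted p = 0.101) and -0.04 in SpCBE (edgeR, adjusted p = 0.617). Without the editor term, the calls of DYNLL1, HCFC1, GABPB1 and YY1 were lost (edgeR, adjusted p = 0.608, 0.415, 0.206 and 0.32). NFE2L1, an unrelated leucine zipper factor that is also abbreviated NRF1, rose by 0.14 (edgeR, adjusted p = 0.000422). Its editors ran in another order than those of NRF1, with 0.29 in SpABE, 0.09 in SaABE and 0.04 in SpCBE. The SpABE effect differed from that of SpCBE by 0.25.

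**Figure D4:**
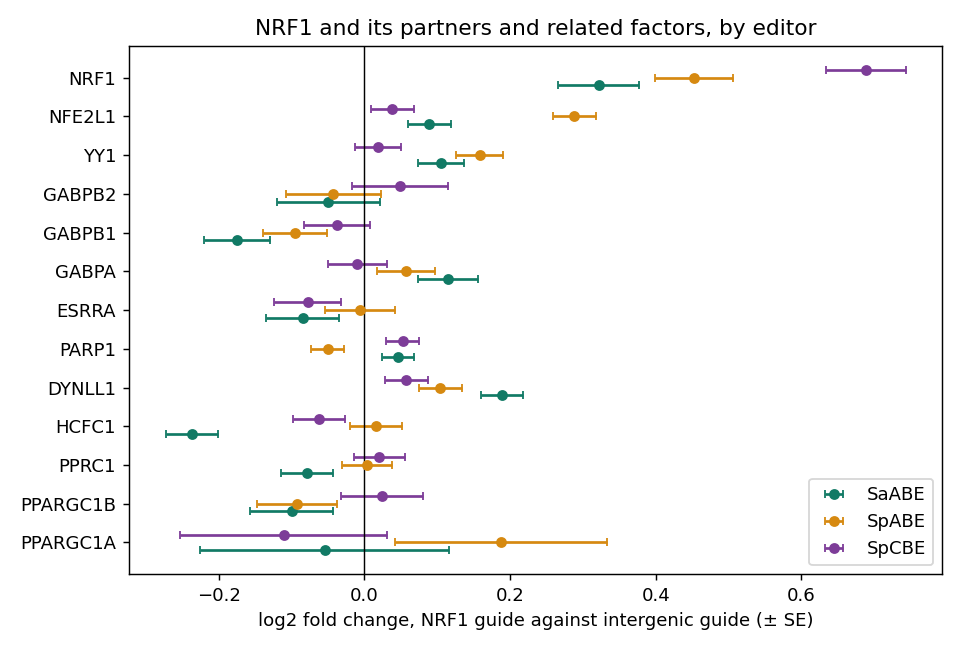
log2 fold change of NRF1 guide against intergenic guide (x axis, ± SE) for NRF1 and 12 listed genes (y axis), with 1 point per editor. The 12 are partners or related factors, except NFE2L1, which only shares the abbreviation. NRF1 lies at 0.32 to 0.69, and the other genes lie between -0.24 and 0.29.

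Genes around NRF1 on chromosome 7 were examined to see whether the rise extended along the chromosome. Within 500 kb of the gene body, 33 genes are annotated and 29 are in the table, of which 11 passed the filter. By edgeR, 0 of the 11 were higher and 1 was lower over all 3 editors at an adjusted p under 0.05, where 20.6% of all genes tested were higher and 18.8% lower. At an unadjusted p under 0.05, 1 was higher and 1 lower, beside 25% and 21.8% of all genes. DESeq2 called 1 higher and 1 lower. The median log2 difference of the 11 was -0.02. With the fold threshold of 0.5 added, 1.13% of all genes tested were higher. At such shares, 0 higher among 11 genes says little about the neighbourhood.

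The tested gene nearest to NRF1 moved in the opposite direction. AC078846.1, a long noncoding RNA, lies on the minus strand and starts 49 bases upstream of the annotated start of NRF1, so that the pair is divergent. Its intergenic-guide values were 2.82, 1.91 and 3.20 CPM in SaABE, 3.16, 2.83 and 2.41 CPM in SpABE and 3.53, 3.76 and 3.47 CPM in SpCBE. With NRF1 guides the values were 1.77, 2.36 and 1.69 CPM in SaABE, 2.91, 2.41 and 2.84 CPM in SpABE and 2.43, 2.52 and 2.66 CPM in SpCBE. The groups were apart in SpCBE and overlapped in SaABE and SpABE.

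Over all 3 editors AC078846.1 fell by 0.33 on the log2 scale (SE 0.1; edgeR, adjusted p = 0.0117). The change was -0.46 in SaABE (edgeR, adjusted p = 0.0444), -0.04 in SpABE (edgeR, adjusted p = 0.884) and -0.50 in SpCBE (edgeR, adjusted p = 0.0177). By edgeR 0 of the 3 differences between editors passed (1 had an unadjusted p under 0.05), where 4.09% to 11.7% of all genes passed. Its estimated counts were 52 to 159 per library, a small fraction of those of NRF1, and the call was lost without the editor term (edgeR, adjusted p = 0.0838). The strand setting of the counting is not given in the sources used here, so reads of a divergent pair could be misassigned where transcripts extend past their annotated starts.

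The other tested neighbours had lower log2 differences than NRF1 over all 3 editors, as did 98% of all genes. UBE2H, a ubiquitin-conjugating enzyme and the nearest tested gene downstream, at 73650 bases, had a log2 difference of 0.02 over all editors. It rose by 0.17 in SaABE (edgeR, adjusted p = 4.13e-05), with -0.05 in SpABE and -0.07 in SpCBE. ZC3HC1, which encodes a nuclear pore-associated protein, had the highest value of the 11 at 0.05 (edgeR, adjusted p = 0.0561; DESeq2, adjusted p = 0.035). It also passed with RLE scaling, a minimum of 1 CPM in 3 libraries, and without SaABE intergenic-guide replicate 1, SpABE intergenic-guide replicate 3, SpABE NRF1-guide replicate 1 or SpCBE intergenic-guide replicate 3, at 0.05 to 0.07. SMKR1, the nearest tested protein-coding gene upstream, had a value of -0.21 (edgeR, adjusted p = 0.137). STRIP2, AHCYL2, AC009244.1, KLHDC10, TMEM209, TSPAN33 and SMO, the Hedgehog signal transducer, lay between -0.05 and 0.02 and did not pass, but TMEM209 did with total counts alone (-0.08, edgeR, adjusted p = 0.0264). RNA5SP244, a pseudogene inside NRF1, reached at most 3.21 estimated counts and was not tested.

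**Figure D5:**
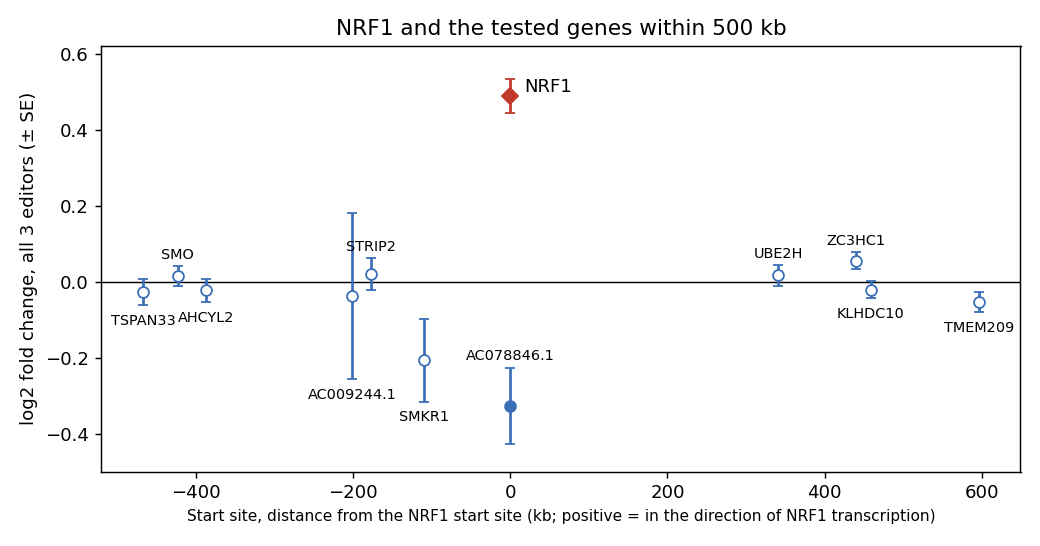
log2 fold change over all 3 editors (y axis, ± SE) of NRF1 (red) and the 11 tested genes with bodies within 500 kb (blue, filled where the edgeR adjusted p is under 0.05), by distance between start sites in kb (x axis). NRF1 stands at 0.49, AC078846.1 beside it at -0.33, and the other 10 genes between -0.21 and 0.05.

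The genes whose levels ran most like NRF1 across the 18 libraries were found by Pearson's correlation of log2 CPM among 11179 genes. These libraries share guides and editors, so the correlations describe the groups more than independent samples. The 5 most alike were ANAPC15 at 0.94, MLST8 at 0.94, CIPC at 0.93, ATF5 at 0.93 and AK9 at 0.93. ANAPC15 encodes a subunit of the anaphase-promoting complex, MLST8 a subunit of the mTOR complexes and ATF5 a stress-responsive transcription factor. Around their group means, the correlation with NRF1 was 0.36 for ANAPC15, 0.55 for MLST8, 0.03 for CIPC, 0.31 for ATF5 and -0.16 for AK9, lower in each case.

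The 5 most opposite genes were ZMAT3 at -0.98, ERCC6 at -0.95, CLGN at -0.95, ZNF711 at -0.95 and SPEN at -0.94. ZMAT3 is a zinc finger protein induced by p53 and ERCC6 a factor of transcription-coupled repair. ZMAT3 averaged 64.2 ± 5.92 CPM with intergenic guides and 47.1 ± 2.64 CPM with NRF1 guides (SD, n = 9 each). It was also the one of the 10 genes with the strongest relation around the group means, at -0.80. ZMAT3 was picked by its correlation over these same libraries, so neither this relation nor its difference between guides is separate support. By Spearman's correlation 1 of the 5 most alike and 3 of the 5 most opposite stayed among the first 5, and with total-count scaling 4 and 0 did.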

How the data were processed

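Polyadenylated RNA of 18 HEK293T libraries was analysed. The authors trimmed reads with Cutadapt 1.18 and aligned them to hg38 with GENCODE 30 using STAR 2.7.0f in its 2-pass mode; the submitters' notes also name DESeq2 1.46.0. Their deposited values are estimated counts for each gene, without normalization. The counting program and its strand setting are not given in the sources used. Tests for whole counts had been planned, but 19.63% of nonzero values were not whole (tolerance 1e-09), 8 of the 18 NRF1 values among them, so values were rounded. Of 36 sample columns, 18 were not used, since they match no sample analysed here. 0 rows lacked a gene.

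Genes were kept with filterByExpr by group (17743 of 58870), scaled by TMM and tested with edgeR 4.0.16 quasi-likelihood (R 4.3.3) and Benjamini-Hochberg adjustment over all of them. The effect over all 3 editors was fitted with the editor as an additive term, and all other comparisons from 6 group means. A guide effect was called where the adjusted p was under 0.05 and the log2 fold change over 0.5 in size, other differences at the adjusted p alone. Intervals are normal 95% intervals from the SE. Exact permutation tests went through every arrangement of the guide labels. Ranks for Spearman's correlation used scipy 1.17.1. Alternatives changed scaling, filter, test (DESeq2 1.42.0), libraries, editor term and replicate block; robust estimation of the spread was chosen after seeing the data. The steps were run on simulated data with known changes, no differences between editors and a spread below that estimated for NRF1. The outcome of that run is not given here. Coordinates and exon lengths came from GENCODE 44 on hg38, where 58472 identifiers matched. Counting errors cover counting only. All pairs of libraries within a group differed by more than sampling noise.

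NRF1, the lists and the tests were chosen with earlier results of these data known. The list of partners and related factors holds NFE2L1 only for its shared abbreviation. Named genes were NRF1, 3 targets and SRSF3 from the study, 12 partners and related factors, neighbours within 500 kb (the 8 nearest, and any past the threshold; all 11 tested are given), and the 5 genes most alike and most opposite by correlation of log2 CPM (prior count 2) at a mean CPM of at least 5 without a clone name for a symbol.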

Additional observations from a re-analysis of the deposited data

Results flagged for a closer look

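The guide effect on NRF1 differed between SaABE and SpCBE by -0.37 on the log2 scale (edgeR, adjusted p = 0.00667), and the difference itself was tested. The 2 editors also differ in deaminase, nickase, splice site and intergenic guide, which cannot be told apart.

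The 28 genes named for reasons other than likeness to NRF1 include NRF1 itself. Of the 28, 4 passed for SaABE minus SpABE, 3 for SaABE minus SpCBE (NRF1 among them) and 2 for SpABE minus SpCBE. SRSF3 differed by -0.11 for SaABE minus SpABE and by -0.16 for SaABE minus SpCBE. HCFC1 differed by -0.25 for SaABE minus SpABE. PARP1 differed by -0.10 for SpABE minus SpCBE. NFE2L1 differed by -0.20 for SaABE minus SpABE and by 0.25 for SpABE minus SpCBE. UBE2H differed by 0.22 for SaABE minus SpABE and by 0.23 for SaABE minus SpCBE. Among all genes tested, 11.7%, 4.09% and 8.96% passed for SaABE minus SpABE, SaABE minus SpCBE and SpABE minus SpCBE. Groups of 3 libraries are too small for a test of single deviating libraries.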

How the results depend on the processing

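The 13 NRF1 comparisons were recomputed 212 times under alternatives, and 191 values kept their direction and side of the threshold. The guide effect stayed positive under every alternative run, from 0.46 to 0.51 over all 3 editors, 0.28 to 0.34 in SaABE, 0.39 to 0.50 in SpABE and 0.63 to 0.74 in SpCBE. Leaving out single libraries gave 0.46 to 0.51, 0.31 to 0.34, 0.39 to 0.50 and 0.63 to 0.74 for these, -0.18 to -0.06 for the difference of effects SaABE minus SpABE, -0.42 to -0.32 for SaABE minus SpCBE, -0.30 to -0.17 for SpABE minus SpCBE, 0.14 to 0.19 for the intergenic-guide groups SpABE minus SpCBE, 0.0226 to 0.137 for the NRF1-guide groups SaABE minus SpABE, -0.0588 to 0.0419 for SaABE minus SpCBE, and -0.147 to -0.0094 for SpABE minus SpCBE. The NRF1-guide difference SaABE minus SpCBE turned positive without SaABE NRF1-guide replicate 2 (0.0057) or SpCBE NRF1-guide replicate 3 (0.0419). The difference of effects SpABE minus SpCBE passed with total counts (-0.25), no filter (-0.24), a minimum of 1 CPM in 3 libraries (-0.24), the replicate block (-0.24) and the robust spread (-0.24), an alternative chosen after seeing the data. With total counts alone, the intergenic-guide difference SpABE minus SpCBE no longer passed (0.11) and the NRF1-guide one passed (-0.14). The causes were not tested. Total counts also moved the median of all genes from -0.016 to -0.13 for the NRF1-guide groups SaABE minus SpCBE. NRF1 minus that median was 0.0071 with either scaling.

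Total counts lowered the share of higher genes among those past the threshold from 49.3% to 30.8% for the difference of effects SaABE minus SpCBE, and from 46.4% to 54.3% down to 23.3% to 38.5% in the 6 comparisons between groups of 1 guide. With the replicate block, 465 genes passed for the difference of effects SaABE minus SpCBE in place of 726. The replicate numbers pair the libraries only by a hint from the data: same-numbered SpABE libraries had correlations of 0.17, 0.138 and 0.137 at a mean CPM of at least 20, but -0.06, 0.027 and 0.166 at 10, and SaABE pairs reached -0.41. The replicate block gave NRF1 effects of 0.49 over all editors and 0.32, 0.45 and 0.69 by editor, and changed the call of no NRF1 comparison other than SpABE minus SpCBE. Among genes that did not pass, the sign turned with total counts for PPARGC1A (-0.0135), PARP1 (-0.0105), UBE2H (-0.0103), STRIP2 (-0.0079) and SMO (-0.0118). Leaving out single libraries took in both signs for PPARGC1A (-0.0398 to 0.055), GABPB2 (-0.0304 to 0.0064), UBE2H (-0.0017 to 0.0291), STRIP2 (-2e-04 to 0.04) and AC009244.1 (-0.186 to 0.0668).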
